A study of Mus musculus with 2 samples.

Results

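The genes described here move, store, sense or deliver zinc and copper. They were chosen by symbol: every gene whose symbol begins with Slc30a or Slc39a, the metallothionein genes Mt1 to Mt4, the factor gene Mtf1, and the copper genes Slc31a1, Slc31a2, Atox1, Atp7a, Atp7b, Cp and Commd1. The rule found 37 of the 34531 gene symbols in the deposited table, each on 1 row. RNA of BALB/c mouse liver, taken when the animals were 5 months old, was sequenced in 1 library labelled WT and 1 labelled SRSF2-KO. Both libraries were of untreated liver as far as the labels go, and the second carried a liver-specific deletion of Srsf2, the gene of an SR splicing factor, according to the study's design text. The promoter that drove the deletion, and whether a library held 1 animal or several, are not given by the labels. The comparison asks how transcript levels in liver differed between the genotypes.

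With 1 library per genotype, no comparison could be tested or checked against replicates. Srsf2 itself stood at 45.3 FPKM (fragments per length of transcript and per depth of library) for SRSF2-KO and 38.2 FPKM for WT. The targeted gene was thus not lower where its label would have it, and so every direction is between libraries as labelled. Which bases of Srsf2 were deleted is not stated, and a deletion need not lower the summed FPKM of a gene. Pairs of values give the library labelled SRSF2-KO first. Estimated depths, from the whole-read spacing of low values, were 24400000 and 19400000 fragments. The deposited values summed to 523254 and 666262 FPKM. A gene at equal shares of these sums therefore has a deposited ratio of 0.785. Of 10 hepatocyte markers, 9 were measured and all 9 had lower deposited values in the library labelled SRSF2-KO. Their log2 ratios of SRSF2-KO over WT ran from -1.40 to -0.10. Against equal shares the list was divided: Apob and Trf, at deposited ratios of 0.934 and 0.856, lay above 0.785, and the others lay below. Alb, the albumin gene, was listed at 0 in both. A listed 0 is therefore not read as absence. Summed markers of stellate cells and fibroblasts stood at 213 against 105 FPKM, those of the bile duct at 287 against 30.4, those of macrophages at 167 against 159 and those of sinusoidal endothelium at 72.3 against 125. Most of the bile duct sum was Spp1, at 266 against 21.9 FPKM, while the duct keratin Krt19 was at 0.426 against 1.10 FPKM. The macrophage list was divided, with 4 of 12 genes higher and 3 lower by at least 2-fold. In whole liver, fewer cells of a type and less RNA per cell cannot be told apart.

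Zinc enters the cytosol through the SLC39 (ZIP) carriers, from outside the cell or from organelles, and leaves it through the SLC30 (ZnT) carriers. Free zinc is buffered by metallothioneins, small cysteine-rich proteins that also bind copper, and is sensed by MTF1, a zinc finger factor that binds metal response elements and drives metallothionein genes and Slc30a1. Copper enters hepatocytes through CTR1 (Slc31a1) and is carried by the chaperone ATOX1 to ATP7B, which loads it onto ceruloplasmin (Cp) for the blood or sends it into bile. The liver is the main organ of copper excretion, and loss of ATP7B causes Wilson disease.

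The promoters of 3 textbook MTF1 targets are shown because their transcripts are a read-out of that sensor. They are RefSeq sequences of build GRCm38.p6, all on the plus strand, from 250 bases before to 50 after the annotated start. They lie at chr8:94178839-94179138 for Mt1, chr8:94172368-94172667 for Mt2 and chr1:191906531-191906830 for Slc30a1. Capitals mark the core letters of the metal response element, searched as TGCGCNC and TGCACNC on both strands, so that a match on the minus strand appears as its reverse complement.
Mt1: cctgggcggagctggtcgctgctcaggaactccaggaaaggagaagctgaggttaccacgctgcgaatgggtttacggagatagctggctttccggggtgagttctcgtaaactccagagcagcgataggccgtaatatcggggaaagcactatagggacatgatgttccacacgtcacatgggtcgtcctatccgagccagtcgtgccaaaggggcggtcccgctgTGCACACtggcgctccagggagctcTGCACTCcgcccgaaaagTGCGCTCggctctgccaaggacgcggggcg
Mt2: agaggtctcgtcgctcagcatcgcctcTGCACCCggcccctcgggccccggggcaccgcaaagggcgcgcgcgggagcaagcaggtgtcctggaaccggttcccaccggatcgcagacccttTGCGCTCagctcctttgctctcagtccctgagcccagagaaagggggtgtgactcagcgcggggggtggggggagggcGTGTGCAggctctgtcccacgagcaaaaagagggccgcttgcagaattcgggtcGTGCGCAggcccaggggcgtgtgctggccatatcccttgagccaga
Slc30a1: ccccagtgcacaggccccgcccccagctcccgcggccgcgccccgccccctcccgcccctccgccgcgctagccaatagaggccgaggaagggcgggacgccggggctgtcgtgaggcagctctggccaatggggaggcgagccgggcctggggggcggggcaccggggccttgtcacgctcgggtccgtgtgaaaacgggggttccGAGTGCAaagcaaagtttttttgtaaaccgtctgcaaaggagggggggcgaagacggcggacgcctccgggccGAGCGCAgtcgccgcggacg

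Mt2 held 4 matches, Mt1 held 3 and Slc30a1 held 2. Those of Mt1 at 2 and 20 bases, of Mt2 at 4 and of Slc30a1 at 30 lay after the annotated start. Matches outside the windows were not counted. Among all 32851 promoters of the same table and length, 25.7% held at least 1 match, 7.11% at least 2, 1.97% at least 3 and 0.517% at least 4. Of the 37 members, 32 matched the table by symbol; the others were Slc30a8, Slc39a1-ps, Slc39a4, Slc39a6 and Slc39a14. Slc30a4 and Slc30a10 also held 3 matches each, and in Slc30a10 a pair of them overlapped on opposite strands. Counting for each gene its promoter with most matches, 19 of the 32 members (59.4%) held at least 1, against 28.2% of 27025 genes. Members and all genes were not matched for base composition, and the difference was not tested. A match describes letters only, and none was found in the windows of Slc31a1, Cp, Atox1 or Mtf1.

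**Figure D1:**
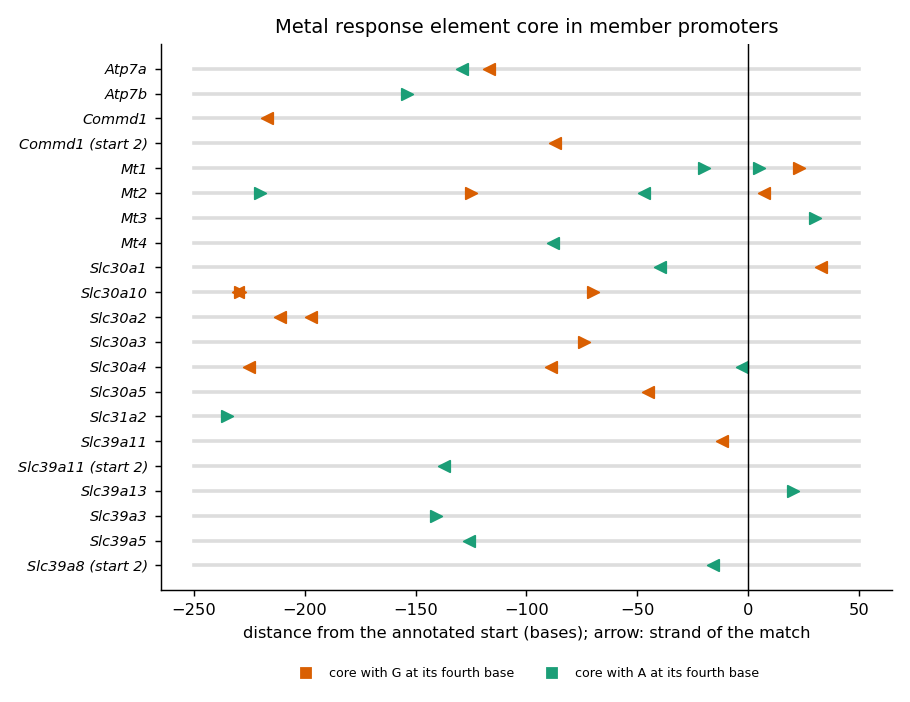
Positions of the metal response element core in the promoter windows that hold at least 1 match. The horizontal axis is the distance in bases from the annotated start, arrows give the strand and colours the fourth base of the core; Mt2 holds 4 matches and Mt1 holds 3.

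Of the 37 members, 28 were measured, meaning at least 1 FPKM in at least 1 library. As a group they lay close to equality between the libraries. Only Slc39a4 was at least 2-fold apart, higher in the library labelled SRSF2-KO, and no member was lower by as much. Among all 11387 measured symbols, 5.45% were higher and 3.22% lower by at least 2-fold, 8.68% in all, so 1 of 28 is no more than the background. After rescaling both libraries to the same sum over all rows (TPM), Slc39a13 joined it at a log2 ratio of 1.02, and 10.7% of symbols were then higher by as much. Within 1.5-fold of each other were 24 of the 28 members (85.7%), beside 78.2% of all measured symbols. Each log2 ratio given here equals log2((SRSF2-KO + 1)/(WT + 1)) of FPKM, which understates differences of low genes. Its median was -0.05 over the measured members and -0.04 over all measured symbols. Above 0 lay 11 members, or 39.3%, beside 46% of all measured symbols, and 17 members lay below. This balance depended on scaling, with 23 above and 5 below after the TPM rescaling and likewise with equal sums outside the top 50 rows, and 14 on each side after the median ratio rescaling.

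**Figure D2:**
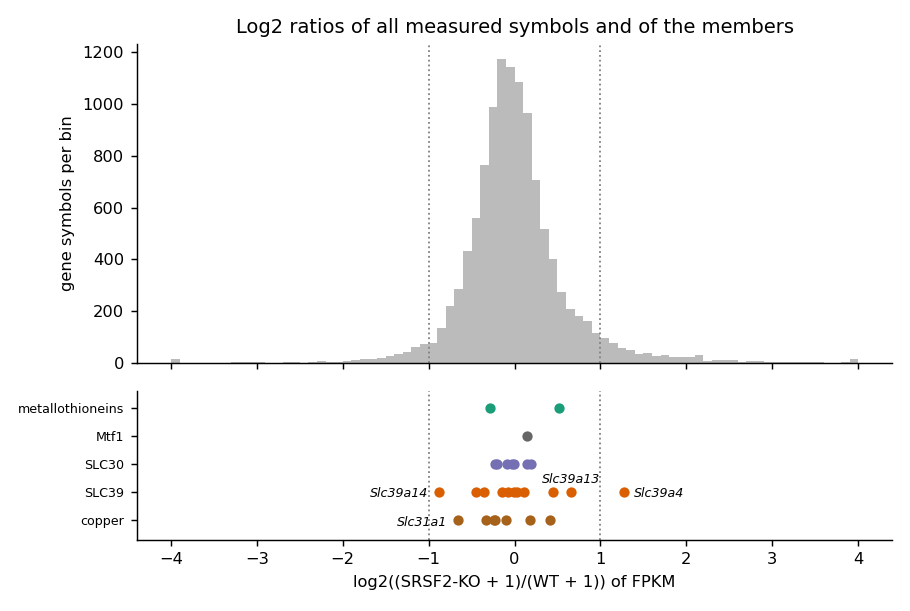
Log2 ratios between the libraries, with the number of measured symbols per bin of 0.1 above (values beyond the axis are gathered in its end bins) and each measured member as a point below, by role. The members sit in the centre of the distribution, with Slc39a4 at 1.27 to the right and Slc39a14 at -0.88 and Slc31a1 at -0.66 to the left.

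Counting error was narrower than many of these small differences. From estimated reads, the 95% exact (Clopper-Pearson) interval of the ratio lay above 1 for 8 members, below 1 for 9 and held 1 for 11. These intervals cover counting error only and rest on transcript lengths of the GENCODE M21 annotation. The same 8 members lay above equality under all 4 scalings: Slc39a4, Slc39a6, Slc39a13, Mt2, Cp, Atp7b, Slc30a9 and Slc30a7. On the lower side, Slc39a14 and Slc31a1 did so, and the other 7 had intervals that reached 0.785, the ratio of equality after the TPM rescaling, or lay above it.

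**Figure D3:**
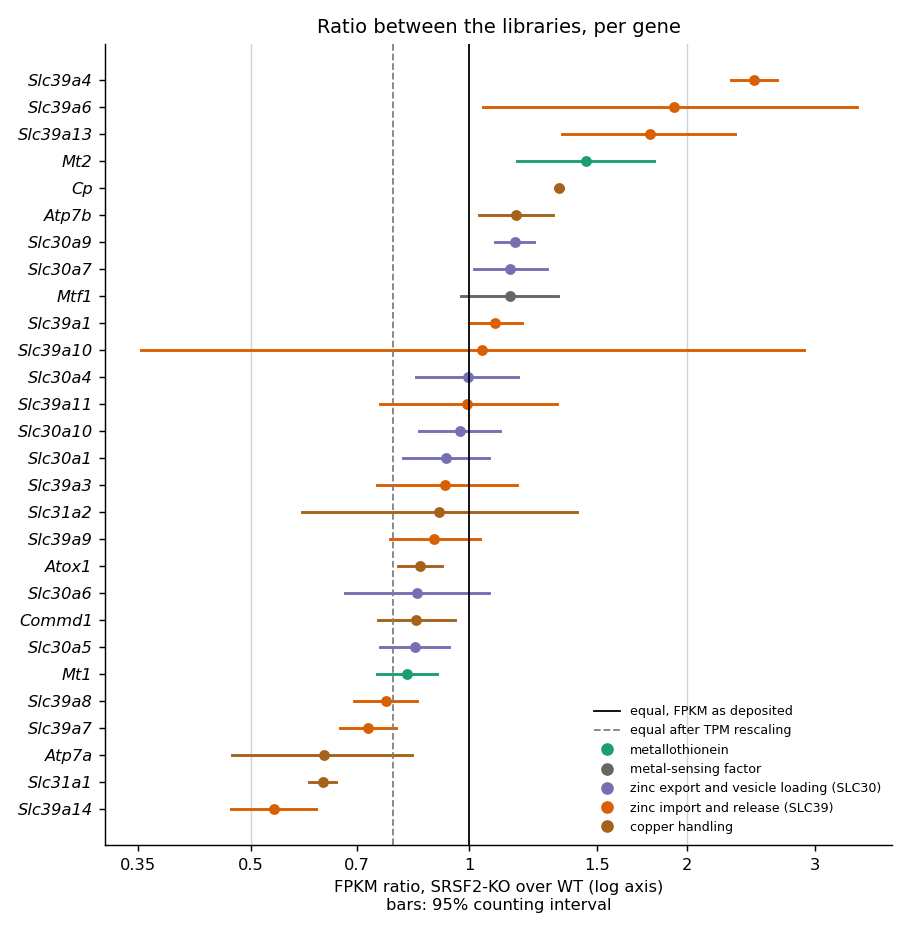
FPKM ratio of the library labelled SRSF2-KO over the library labelled WT for the 28 measured members, on a log axis, with 95% counting intervals as bars. The solid line is equality of FPKM as deposited and the dashed line, at 0.785, equality after the TPM rescaling; Slc39a4 stands alone beyond a ratio of 2, and Slc39a14 and Slc31a1 lie wholly left of the dashed line.

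For FPKM as deposited, the metallothionein transcripts hardly differed in sum. Mt1 and Mt2, the isoforms made by liver, together stood at 119 against 125 FPKM, a ratio of 0.950. This ratio lay above equality after the TPM rescaling (0.785) and after the rescaling that leaves out the 50 most abundant rows (0.820). After the median ratio rescaling (0.950) it was level with equality. The balance of Mt1 and Mt2 differed, however. Mt1 was at 81.7 against 99.4 FPKM, a ratio of 0.822 with a counting interval of 0.748 to 0.903. Mt2 was at 36.9 against 25.4 FPKM, a ratio of 1.45 with an interval of 1.17 to 1.80. Mt1 was thus 3.91 times as abundant as Mt2 for WT and 2.22 times in the other library, a comparison within libraries that no scaling alters. Mt1 changed sides under scaling, with log2 ratios of 0.06 after the TPM rescaling and 0.0034 when sums without the 50 most abundant rows were made equal. Mt2 was above 0 as deposited and could only move further up, because every rescaling raised the library labelled SRSF2-KO relative to the other.

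The estimated reads behind these values were 903 and 874 for Mt1 and 242 and 133 for Mt2. The longest exact stretch shared by their GENCODE M21 transcripts was 20 bases. An antisense gene, Gm45774, covers 73.5% of the exonic bases of Mt2, and without known strandedness its reads could not be told from those of Mt2. Mt3 and Mt4, known from brain and from stratified epithelia, were listed at 0 in both libraries.

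Mtf1, the zinc sensor, was at 4.22 against 3.71 FPKM, a ratio of 1.14 with an interval of 0.975 to 1.33. Its other textbook target, Slc30a1, the zinc exporter of the plasma membrane, was at 6.92 against 7.44 FPKM, a ratio of 0.930 with an interval of 0.812 to 1.07. Both intervals held 1, but scaling decided their side: that of Mtf1 lay above the ratio of equality after each of the 3 rescalings (0.785, 0.820 and 0.950), and that of Slc30a1 above the first of these. The gene 1110065P20Rik overlaps 8.1% of the exonic bases of Mtf1 on the opposite strand and stood at 9.64 against 15.0 FPKM.

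The SLC30 carriers formed the most even group. All 7 measured members lay between log2 ratios of -0.23 and 0.20, with a median of -0.03 and sums of 51.9 against 52.6 FPKM. Slc30a9, a carrier linked to mitochondrial zinc, was the most abundant at 18.5 against 16.0 FPKM. Slc30a5 and Slc30a6, whose products pair to load zinc into the secretory pathway, were at 9.81 against 11.7 FPKM and at 6.02 against 7.11 FPKM. Their ratios were alike, 0.841 and 0.846. Slc30a7, which serves the same compartment, was at 3.31 against 2.90 FPKM, a ratio of 1.14 with an interval of 1.02 to 1.28. After the TPM rescaling all 3 lay above 0, at log2 ratios of 0.09, 0.10 and 0.45. The vesicle carrier gene Slc30a4 was at 3.42 against 3.43 FPKM. Slc30a10, which exports manganese from hepatocytes, was at 3.90 against 4.02 FPKM, with an interval of the ratio from 0.854 to 1.10. Slc30a2, Slc30a3 and Slc30a8, known from mammary and pancreatic acinar cells, neurons and pancreatic beta cells, stayed at or below 0.0799 FPKM in each library.

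**Figure D4:**
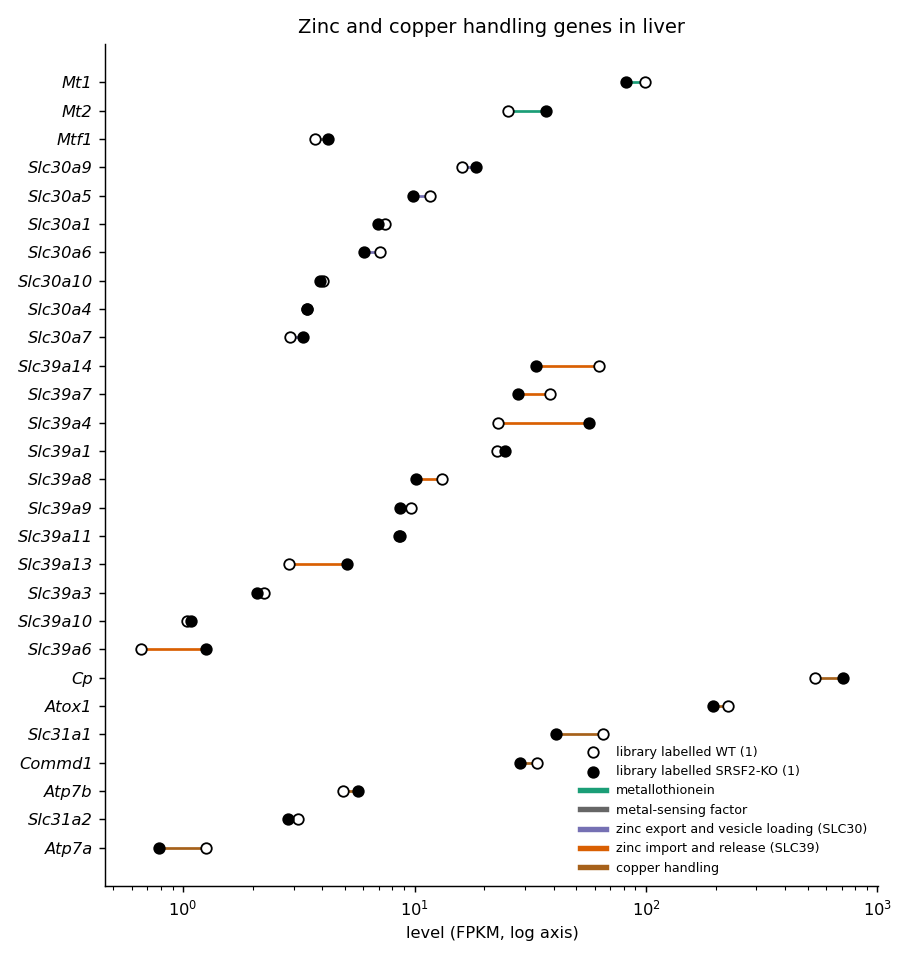
Level of each measured member in FPKM (log axis), open circles for the library labelled WT and filled circles for the library labelled SRSF2-KO, joined by a line coloured by role and ordered within a role by the WT level. The SLC30 pairs nearly coincide, and Slc39a4 and Slc39a14 move in opposite directions across one another.

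The SLC39 importers held the widest differences, and these went in opposite directions. Slc39a4 codes for ZIP4, the importer of dietary zinc in the intestine, whose loss causes the zinc deficiency disorder acrodermatitis enteropathica. In the library labelled SRSF2-KO it stood at 56.7 FPKM and in that labelled WT at 22.9 FPKM, a ratio of 2.47 with a counting interval of 2.30 to 2.66. Of all measured symbols, 408 had a higher log2 ratio than its 1.27. This value lay between 1.20 and 1.63 under the alternative pseudocounts and scalings.

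Slc39a14 codes for ZIP14, which takes up zinc, manganese and iron not bound to transferrin into hepatocytes and is induced by interleukin-6. It stood at 33.6 against 62.4 FPKM, a ratio of 0.538 with an interval of 0.469 to 0.615. Of all measured symbols, 470 had a lower log2 ratio than its -0.88, and under the scaling alternatives this value lay between -0.80 and -0.54. The order of these importers was inverted between the libraries. Slc39a14 was 2.72 times as abundant as Slc39a4 in the library labelled WT, and Slc39a4 was 1.69 times as abundant as Slc39a14 in the library labelled SRSF2-KO. Among all members by FPKM, Slc39a4 ranked 9 for WT and 4 in the other library. The ratio of Slc39a4 to Slc39a14 thus differed 4.60-fold, independent of scaling.

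Slc39a13, which codes for ZIP13, a vesicular carrier needed by connective tissue cells, was at 5.11 against 2.88 FPKM, a ratio of 1.77 with an interval of 1.34 to 2.33. Alongside it, 11 of 12 stellate cell and fibroblast markers lay above 0 and 6 of them at 1 or more, and their part in the result was not tested. Psmc3, a proteasome gene on the opposite strand that shares 4.4% of the exonic bases of Slc39a13, went the other way, at 60.2 against 87.2 FPKM. Slc39a6, which codes for the plasma membrane importer ZIP6, was low in both libraries, at 1.25 against 0.655 FPKM. Its ratio of 1.92 had an interval of 1.05 to 3.42 from an estimated 42 and 18 reads.

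Lower values in the library labelled SRSF2-KO were seen for Slc39a7, which codes for ZIP7 and releases zinc from the endoplasmic reticulum, at 28.0 against 38.5 FPKM. The gene model Gm20427 shares 80.7% of the exonic bases of Slc39a7 on the same strand and was listed at 0.0803 and 0 FPKM, so the split of reads between them is uncertain. Slc39a8, the gene of ZIP8, a manganese and zinc importer related to ZIP14, was at 10.1 against 13.1 FPKM. Their ratios of 0.726 and 0.768 had intervals below 1, and their log2 ratios shrank to -0.11 and -0.03 after the TPM rescaling. Slc39a1, a broadly expressed plasma membrane importer, was at 24.6 against 22.6 FPKM, and its interval of 0.999 to 1.18 held 1. Slc39a9, Slc39a11, Slc39a3 and Slc39a10 had ratios of 0.896, 0.994, 0.927 and 1.04, and all 4 intervals held 1. That of Slc39a10 was by far the widest, 0.353 to 2.90 from an estimated 10 and 8 reads, and so cannot show equality. Slc39a2, Slc39a5 and Slc39a12 stayed below 0.3 FPKM, and the pseudogene Slc39a1-ps was listed at 0 in both. Over the 11 measured carriers the median log2 ratio was -0.01, with sums of 180 and 185 FPKM.

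All 7 copper genes were measured and none was 2-fold apart. Slc31a1, the gene of the importer CTR1, was lowest, at 40.8 against 64.9 FPKM. Its ratio of 0.628 had an interval of 0.602 to 0.656, and its log2 ratio of -0.66 lay between -0.58 and -0.32 under the other scalings. Slc31a2, the gene of a related protein of endosomes and lysosomes, was at 2.84 against 3.13 FPKM, and its interval of 0.588 to 1.41 held 1.

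Cp, a ferroxidase that carries most of the copper in plasma, was the most abundant member. It stood at 711 against 535 FPKM, a ratio of 1.33 with an interval of 1.31 to 1.35. The ratio of Cp to Slc31a1 thus differed 2.12-fold between the libraries. Atp7b, the pump whose loss causes Wilson disease, was at 5.71 against 4.93 FPKM, a ratio of 1.16 with an interval of 1.03 to 1.30. Atp7a, the related pump of Menkes disease that adult hepatocytes hardly use, was at 0.788 against 1.25 FPKM, a ratio of 0.630 with an interval of 0.471 to 0.835. Between uptake and pumps, Atox1 was at 194 against 226 FPKM. Commd1, whose product binds ATP7B and whose loss causes copper toxicosis in dogs, was at 28.7 against 33.9 FPKM. Atox1 and Commd1 had ratios of 0.856 and 0.846, and their log2 ratios changed sign to 0.12 and 0.11 after the TPM rescaling.

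Lists of genes that hand copper on were level in their median for FPKM as deposited, but not gene by gene. Of 20 listed copper chaperones, reductases and copper enzymes, 14 were measured and 0 reached a log2 ratio of 1 or -1 with the pseudocount of 1, with a median of -0.04. With a pseudocount of 0.1, 1 did. Sod1, the copper and zinc superoxide dismutase, was lowest at 664 against 1108 FPKM, followed by Cmc1, a factor of cytochrome oxidase assembly, at 7.68 against 9.65 FPKM. Pam, a copper enzyme that amidates peptides, was highest at 7.19 against 3.50 FPKM, a plain ratio of 2.05 with an interval of 1.68 to 2.53, followed by Steap3, a metalloreductase, at 10.7 against 6.23 FPKM. The relatives of Commd1 and the partners of their complex, 12 genes, also had 0 members past those values and a median of 0.0013. Within that list Commd2 (10.5 against 18.8 FPKM) and Commd6 (22.5 against 27.2 FPKM) were lowest, and Commd10 (7.59 against 5.10 FPKM) and Commd5 (8.25 against 6.36 FPKM) were highest.

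Enzymes listed as zinc-dependent lay mostly below 0. Of 19 measured liver enzymes of this list, 15 lay below 0. At least 2-fold lower were 3 and higher by as much was 1, beside 3.22% and 5.45% of all measured symbols. The count of 3 was 1 after the TPM rescaling and with equal sums. The median was -0.61, the value of Fbp1, or -0.19 after the TPM rescaling. Whether each listed enzyme depends on zinc was not checked. Car3, an abundant cytosolic carbonic anhydrase, was at 603 against 2501 FPKM, and its mitochondrial relative Car5a was at 33.6 against 73.9 FPKM. Mmp14, a membrane metalloproteinase, was at 16.4 against 5.02 FPKM and Car2 at 3.25 against 1.96 FPKM. The hepatocyte markers had lower deposited values beside this list, and their part in it was not tested.

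Genes listed as targets of signals known to induce metallothionein genes and Slc39a14 differed in direction. Whether these signals themselves differed between the libraries was not tested. Glucocorticoid receptor targets were mostly lower: 11 of 12 lay below 0 and 8 were at least 2-fold lower. Of all measured symbols, 3.22% were lower by as much and 46% lay above 0. The median of these targets was -1.26, or -0.94 after the TPM rescaling. Angptl4, a lipase inhibitor, was at 15.1 against 93.4 FPKM and Lpin1, a phosphatidate phosphatase, at 27.3 against 107 FPKM. Klf9, at 27.8 against 38.4 FPKM, and Igfbp1, at 39.2 against 38.3 FPKM, were the highest of the list. Mt1 and Mt2 are themselves known glucocorticoid receptor targets, and their log2 ratios were -0.28 and 0.52.

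Targets of NRF2, a stress factor that also acts on metallothionein genes, lay on the other side, with a median of 0.51. Above 0 were 11 of 12, beside 46% of all measured symbols, and 4 were at least 2-fold higher, beside 5.45%. Gstm3 (529 against 86.2 FPKM) and Gsta1 (42.7 against 7.78 FPKM) were highest, and Gclm (94.4 against 108 FPKM) and Me1 (56.3 against 51.6 FPKM) were lowest. Among 13 regulators of metallothionein transcription the median was -0.18. Beside 3.22% of all measured symbols, 2 of the 13 were at least 2-fold lower. These were Il6ra, the interleukin-6 receptor, at 6.45 against 19.0 FPKM, and the factor Cebpb at 43.8 against 118 FPKM. Socs3, a feedback inhibitor of that receptor, was at 4.99 against 2.05 FPKM and Nfe2l2, the gene of NRF2, at 39.5 against 30.2 FPKM.

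The interleukin-6 and STAT3 acute phase genes, to which Slc39a14 and Cp are related by their known induction, differed in direction. Of 20 measured genes, 4 were higher and 2 lower by at least 2-fold, beside 5.45% and 3.22% of all measured symbols. The count of 2 was 1 after the TPM rescaling, with equal sums and with a pseudocount of 3. The median was -0.22, or 0.10 after the TPM rescaling. Lcn2, an iron-sequestering protein, was at 127 against 7.91 FPKM and Saa2, a serum amyloid, at 138 against 29.8 FPKM. Hamp2, a hepcidin gene, was at 19.5 against 52.8 FPKM and Cebpd at 5.27 against 13.0 FPKM. Slc39a14, at a log2 ratio of -0.88, and Cp, at 0.41, lay on different sides of 0 as well.

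**Figure D5:**
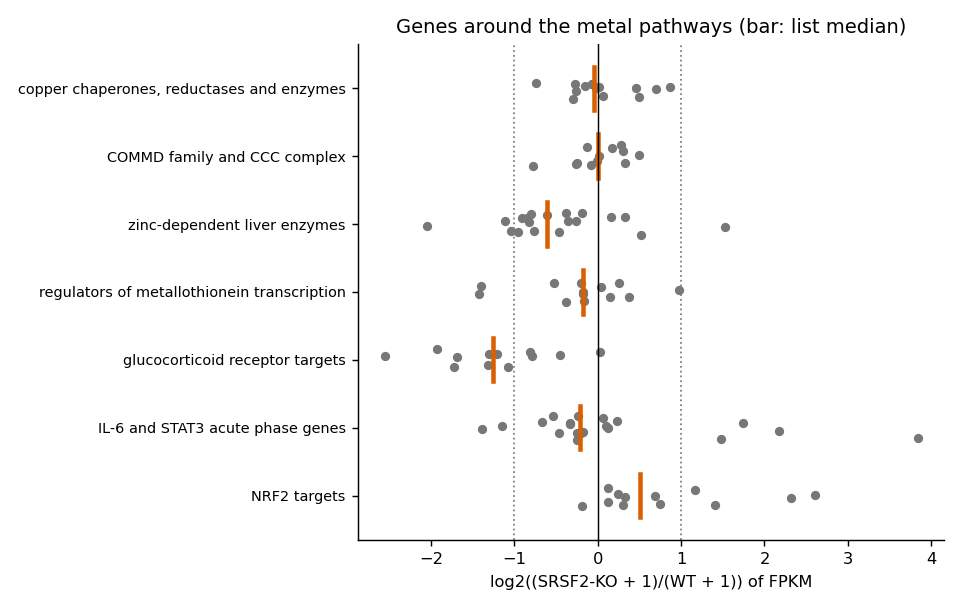
Log2 ratios of the measured genes in 7 lists around the metal pathways, 1 point per gene with vertical jitter, and the median of each list as a bar. The copper and COMMD lists centre near 0, the glucocorticoid receptor targets centre at -1.26 and the NRF2 targets at 0.51.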

How the data were processed

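Liver RNA of BALB/c mice was sequenced in 1 library labelled WT and 1 labelled SRSF2-KO. The authors deposited 1 table of FPKM, already scaled for depth and transcript length. Per the submitters' processing notes, Bowtie 0.12.2 and mm9 were used; for the FPKM program, annotation, strandedness and filters, none is given in the sources used here. The table held 36771 rows, of which 25 carried dates in place of symbols and were left out of the symbol counts. A repeated symbol was represented by its row with the highest mean.

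The measure was log2((SRSF2-KO + 1)/(WT + 1)), with a pseudocount of 1, among symbols that reached 1 FPKM in either library. With 1 library per genotype there was no test. Symbols 2-fold or more apart (log2 ratios from 1 up or from -1 down) were counted. Depth was estimated by fitting fragments and a length offset to low values of single-transcript genes of GENCODE M21, where 71.6% of 469 values and 74.9% of 435 values worth 1 to 3 reads lay no further than 0.1 reads from whole. Estimated reads, from the median protein-coding transcript length (at least 400 bases), gave exact (Clopper-Pearson) intervals at 95%. GENCODE M21 and the RefSeq promoters belong to build GRCm38, not mm9, and were used only for lengths, overlaps and sequence. The scripts were tested on simulated data. Analyses used Python 3.11.15, pandas 2.3.3 and scipy 1.17.1.

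The members and lists were chosen with earlier results of these data known. All measured members are named, and in each of 7 pathway lists the 2 highest and 2 lowest measured genes. The 9 marker lists are given as counts or sums. Those of neutrophils (26.97 against 9.20 FPKM summed), lymphocytes (60.6 against 30.4), erythroid cells (318 against 540) and pancreas (5.71 against 13.4, with 8 of 10 genes listed at 0 in both) are given here. In that order 3, 2, 5 and 1 of their genes were measured. Single genes made up most of the last sums. These were Cd52 for lymphocytes (54.0 against 27.8 FPKM), Hbb-b1 for erythroid cells (271 against 449) and Cela1 for pancreas (5.24 against 13.2). Alternatives were pseudocounts of 0.1 and 3, no filter and a filter of 5 FPKM, 3 rescalings, and the sum of repeated rows.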

Additional observations from a re-analysis of the deposited data

How the results depend on the processing

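Scaling mattered most. Rescaling to TPM, to equal sums outside the 50 most abundant rows and to the median ratio shifted log2 ratios of abundant genes by 0.35, 0.29 and 0.07, and the median over all measured symbols to 0.28, 0.21 and 0.03. The member median moved from -0.05 to 0.24 with TPM and 0.17 with equal sums, close to those shifts, and 12 of 28 members changed sign under each. With TPM, 2 members were at least 2-fold higher and so 2 at least 2-fold apart. Slc39a4 was the only member at least 2-fold apart in the 7 other alternatives.

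With TPM and with equal sums, in that order, list medians were 0.30 and 0.24 for copper chaperones, reductases and enzymes, 0.28 and 0.21 for the COMMD list, -0.19 and -0.32 for zinc-dependent enzymes, 0.16 and 0.10 for metallothionein regulators, -0.94 and -0.99 for glucocorticoid receptor targets, 0.10 and 0.042 for acute phase genes and 0.86 and 0.78 for NRF2 targets. With a filter of 5 FPKM the COMMD and NRF2 medians were 0.17 and 0.69. Counts at least 2-fold higher became 2 (TPM) and 1 (equal sums) in the copper list, and 1 with a pseudocount of 0.1. In the metallothionein regulator list this count became 1 under all 3 rescalings and with a pseudocount of 0.1, from 0. At least 2-fold lower were 1 zinc enzyme and 1 acute phase gene with TPM and with equal sums, and 1 acute phase gene with a pseudocount of 3. The cause was not tested beyond the shifts the rescalings impose. No paired analysis was possible because each genotype had 1 library. Of the 9 members under 1 FPKM in both libraries, 3 were listed at 0 in both, and the others rest on a few reads each.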
